A study of Rattus norvegicus with 38 samples.

Results

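The samples described here were the buccal swabs of 4 control rat pups of cohort 2, named C1, C5, C8 and C11, each swabbed on postnatal day 2 (P2) and again on postnatal day 10 (P10). They made 8 of the 38 samples of the series, and were chosen as all control columns of the cohort 2 table. The pups were Sprague Dawley rats, and on P2 pups of several litters were mixed and given at random to dams. The controls were reared in standard bedded cages between the swabs. The other arm was kept in cages with limited bedding and nesting from P2 to P9 (LBN), and the P2 swab of every pup was taken before the pups were allocated to an arm. Cohort 1, a separate group processed at another date, held 6 further control pups, and cohort 2 also held 4 LBN pups; both are used below only to show where the 4 controls differ. The pups' sexes, dams and cages were not analysed here, and no transgene or drug was used in any group. The tests below treat pups as independent, and littermates in a group would make their p-values too small.

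DNA methylation is the addition of a methyl group to cytosine, in mammals mostly where a G follows (CpG). Maintenance enzymes copy it at each cell division, new methylation is laid down by other methyltransferases, and it is lost by dilution or by TET enzymes. It is generally low in CpG-rich promoters of genes in use and high elsewhere, and cell types differ in where it lies. A buccal swab collects cheek epithelial cells with a varying admixture of leukocytes, so each value is an average over that mixture. A changed cell mixture and a changed methylation level within cells therefore cannot be told apart in any result below.

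Methylation was read by reduced representation bisulfite sequencing (RRBS), in which the enzyme MspI cuts the genome at CCGG and the ends of the fragments are sequenced after bisulfite treatment. The values were percentages of methylated reads in 3417 differentially methylated regions (DMRs), of which 2510 were single positions and 907 longer. The DMRs had been selected by the authors as CpGs that differed between P2 and P10 within single pups, in at least 2 pups of an arm, so every DMR was chosen for a change with age in some of the 19 pups. The counts below therefore describe a selected set, in which the 4 pups themselves helped in the selection, and not the methylome. Read counts behind the percentages were not analysed here, so the depth of each value is unknown and no interval for a single value is given. Of the 3417 DMRs, 458 carried a gene name in the study's annotation, which names the gene with the nearest start for an intergenic DMR.

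For promoter DMRs a promoter sequence of the gene of the same name can be shown. The annotation placed 28 DMRs in a promoter, and limma called 6 of them changed at an adjusted p under 0.05, 1 higher and 5 lower at P10, where 19.3% of all DMRs were called. These 6 are named because of their class and call, and were picked after their values were seen. For 3 of them RefSeq gave a single promoter sequence. The 250 bases before the transcription start are shown 5′ to 3′ to let the CpG content of the gene that gained methylation be compared with that of 2 genes that lost it, with the MspI site CCGG in capitals. The build is GRCr8, not the rn6 build of the DMRs, so the measured bases are not marked and the coordinates of the builds do not correspond. The windows were found by gene name, and whether a DMR lies inside its window is unknown.
Mfap2 (GRCr8 chr5:158597478-158597727, plus strand): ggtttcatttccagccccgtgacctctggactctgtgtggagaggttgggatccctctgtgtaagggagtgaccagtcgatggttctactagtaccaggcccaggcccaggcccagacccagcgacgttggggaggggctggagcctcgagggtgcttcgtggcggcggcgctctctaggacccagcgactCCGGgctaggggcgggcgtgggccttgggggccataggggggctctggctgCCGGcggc
Slc44a3 (GRCr8 chr2:212312628-212312877, minus strand): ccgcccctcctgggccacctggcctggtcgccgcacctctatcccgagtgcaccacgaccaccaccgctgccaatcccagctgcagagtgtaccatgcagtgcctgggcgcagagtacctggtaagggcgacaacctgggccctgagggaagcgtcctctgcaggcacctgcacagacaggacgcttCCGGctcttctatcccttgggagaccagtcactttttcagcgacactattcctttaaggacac
Calml3 (GRCr8 chr17:71331276-71331525, plus strand): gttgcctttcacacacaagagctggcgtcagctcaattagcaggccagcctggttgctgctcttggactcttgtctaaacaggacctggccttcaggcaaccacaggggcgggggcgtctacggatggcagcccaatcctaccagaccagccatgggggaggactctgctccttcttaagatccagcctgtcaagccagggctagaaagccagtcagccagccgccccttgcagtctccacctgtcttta
The Mfap2 window held 15 CG and 2 CCGG with a GC content of 67.6%, the Slc44a3 window 12 CG and 1 CCGG with 62%, and the Calml3 window 5 CG and no CCGG with 58.4%. CG and CCGG read the same on both strands, and each CCGG holds 1 of the counted CG. Over 33469 RefSeq promoter windows of the same length, 46.2% held a CCGG and the median number of CG was 5. A share of 74.2% of the windows had fewer CG than Mfap2, 68.5% fewer than Slc44a3 and 44.7% fewer than Calml3.

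Methylation over the DMRs was lower at P10 than at P2 in each of the 4 pups. The mean level over the 3417 DMRs was 48.7% in C1, 48.2% in C5, 49.7% in C8 and 47.8% in C11 at P2, and 44.5%, 44.0%, 40.8% and 41.6% at P10. The lowest P2 value lay above the highest P10 value, so the ages did not overlap. The change was −4.18, −4.22, −8.91 and −6.19 percentage points in the same order, with a mean of −5.88 ± 2.23 points (SD, n = 4). The exact sign-flip permutation test over 4 pups gave a two-sided p of 0.125, which is the smallest that 4 pups allow.

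In every pup DMRs moved in both directions, with more lower than higher. C1 had 1855 lower DMRs, C5 2080, C8 2281 and C11 1899, or between 54.3% and 66.8% of the DMRs. C11 moved most in both directions, with 1143 DMRs lower by at least 20 points and 528 higher by as much. C8 had the mean furthest below P2, and only 129 of its DMRs were higher by 20 points or more, against 911 lower. C1 and C5 had 783 and 632 falls of this size and 365 and 368 rises. The changes of 2 pups correlated over the 3417 DMRs at a Pearson r of 0.642 for C1 and C8, 0.612 for C5 and C8, 0.554 for C1 and C5, 0.505 for C1 and C11, and 0.468 for C8 and C11. For C5 and C11 r was 0.0983, so these 2 pups shared little of their pattern. The r values are descriptions, since all pups share the selection of the DMRs.

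**Figure D1:**
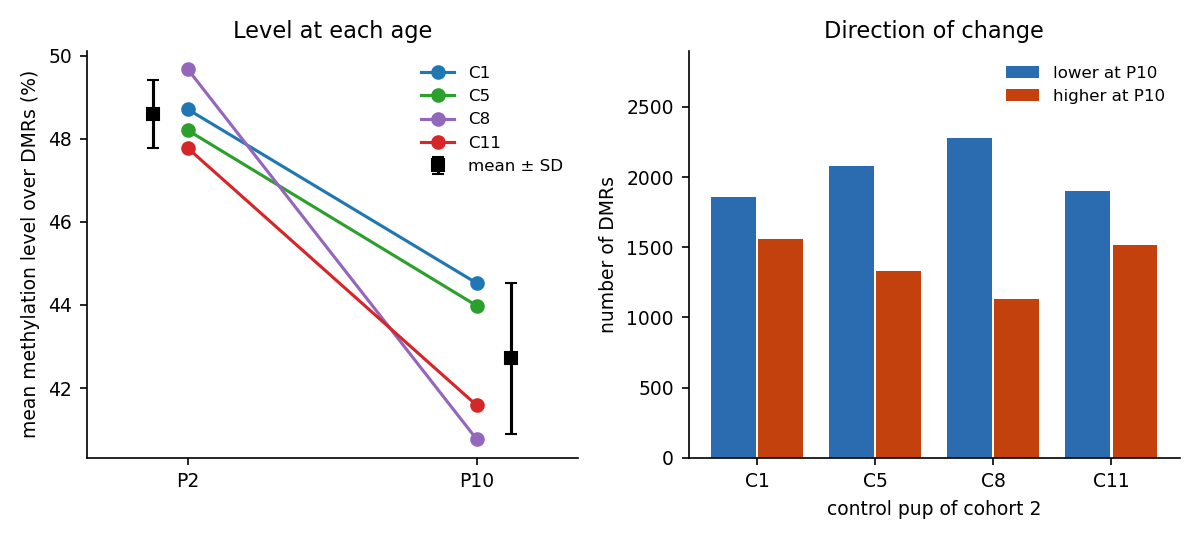
Left, the mean methylation level (percent, axis not starting at 0) over 3417 DMRs in each of the 4 control pups of cohort 2 at P2 and P10, with the mean and SD of the pups as squares. Right, the number of DMRs with a lower and a higher level at P10 in each pup. Every line descends, and lower DMRs outnumber higher ones in all 4 pups, from 1855 in C1 to 2281 in C8.

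Per DMR, the change was tested with limma on the log-odds of methylation, log2((percent + 1)/(100 − percent + 1)), with the pup as a block and Benjamini-Hochberg adjustment over all 3417 DMRs. The test called 661 DMRs, 19.3% of the table, at an adjusted p under 0.05. Of these, 578 were lower at P10 (16.9% of the table) and 83 higher (2.43%). The called falls went from a median of 67.7% at P2 to 33.8% at P10, with a median change of −28.6 points and a furthest one of −60.0 points. The called rises went from a median of 22% to 52.1%, with a median change of 22.3 points and a largest one of 35.3 points. Within 653 of the 661 called DMRs all 4 pups moved the same way. Of all 3417 DMRs, 1044 were lower and 431 higher in all 4 pups. A call from 4 pups favours such DMRs, so the 653 are no separate support. The P2 and P10 values of the 4 pups did not overlap at 811 DMRs that were lower (23.7% of the table) and 290 that were higher (8.49%), and 606 of the called DMRs were among them.

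The direction of the calls depended on the common shift. The median log-odds change over all DMRs was −0.30, or −4.10 points, and after each pup was centred on its own median the test called 230 higher (6.73%) and 294 lower (8.6%). Rises made 12.6% of the calls before and 43.9% after this centring, which by construction moves the calls toward balance, and 377 DMRs were called in both versions. The count also depended on the block and on single pups. Without the pup block 1076 DMRs were called, without C1 60, without C8 228, without C5 651 and without C11 982. At the threshold itself, the DMR on chromosome 9, 96651732 to 96651763 (76.8% to 55.7%) was called with an adjusted p of 0.0498, and that on chromosome 20, 47633435 to 47633436 (44.8% to 23.6%) was not, with 0.0501.

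**Figure D2:**
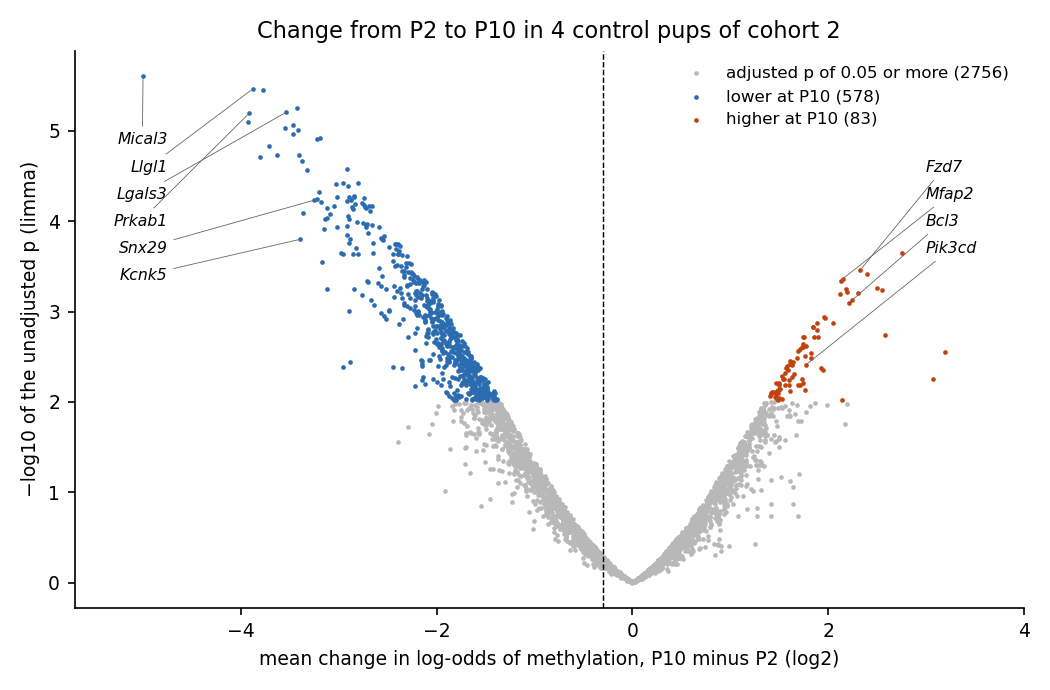
Each point is 1 of 3417 DMRs, placed by its mean change in log-odds (log2, P10 minus P2) and by −log10 of its unadjusted p from limma, with called DMRs in colour and the genes of the largest named changes labelled. The dashed line is the median change of −0.30, and the called falls (578) reach further from 0, to −5.00, than the called rises (83).

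The furthest fall on the log-odds scale was at an intergenic DMR near Mical3, which encodes an enzyme of the MICAL family that acts on the actin cytoskeleton (chromosome 4, 153611188 to 153611189, rn6). Its level was 91.7%, 98.8%, 90% and 95.5% at P2 and 43.3%, 21.2%, 22.8% and 48.5% at P10 in C1, C5, C8 and C11. All pups fell far below their P2 level and the ages did not overlap, with a change of −60.02 ± 14.9 points (SD, n = 4) and a log-odds change of −5.00 ± 0.60 (SE, adjusted p = 0.00325, limma). Prkab1 encodes a regulatory subunit of the energy sensor AMPK, and its intergenic DMR (chromosome 12, 46314322 to 46314326) read 41.9%, 67.5%, 61.4% and 64.6% at P2 and 10%, 5.56%, 11.2% and 5.8% at P10. C1 was the lowest pup at P2, the ages stood well apart, and the log-odds change was −3.92 ± 0.52 (SE, adjusted p = 0.00325). An exon DMR of Llgl1, a cell polarity protein of epithelia (chromosome 10, 46948753 to 46948759), read 61.5%, 71%, 82.4% and 66.7% at P2 and 16.9%, 9.57%, 15% and 12.7% at P10. Here the 4 pups fell in parallel, by 56.8 ± 9.79 points (SD, n = 4; log-odds change −3.88 ± 0.48, SE, adjusted p = 0.00325).

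The other 3 of the 6 furthest falls on the log-odds scale carried no gene name in the annotation used. The DMR on chromosome 14, 17266911 to 17266912 read 100%, 89.7%, 91.7% and 92.9% at P2 and 67.5%, 37.8%, 51.4% and 56.8% at P10. That on chromosome 1, 221627200 to 221627201 read 100%, 93.3%, 92.1% and 78.6% at P2 and 63.6%, 56%, 53.1% and 32.4% at P10. The third, on chromosome 4, 117115130 to 117115131, read 96.6%, 94.5%, 95.5% and 90.9% at P2 and 65.5%, 54.5%, 40.2% and 49.1% at P10. All 3 were nearly fully methylated at P2 in most pups and intermediate at P10, with no overlap of ages, and their adjusted p-values were 0.00325, 0.00395 and 0.00325.

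The largest rises on the log-odds scale covered fewer points than the falls. The DMR on chromosome 5, 144856136 to 144856137 read 46.3%, 47.5%, 44.4% and 44.6% at P2 and 87%, 87.8%, 85.4% and 63.4% at P10 in C1, C5, C8 and C11. C11 rose less than the other 3 pups, and the mean change was 35.2 ± 10.9 points (SD, n = 4, adjusted p = 0.012, limma). The DMR on chromosome 17, 9661618 to 9661619 read 58.2%, 76.1%, 65.9% and 66.7% at P2 and 96.6%, 95.8%, 95.7% and 82.6% at P10, again with C11 lowest at P10 but above every P2 value. A DMR on chromosome 13, 111043000 to 111043001 read 74.3%, 81.4%, 85.6% and 75.5% at P2 and 98.6%, 90.9%, 96.6% and 96.9% at P10. These 3 started at intermediate or high levels and approached full methylation in most pups. The calls on chromosomes 17 and 13 were lost as log2(P10/P2), with adjusted p-values of 0.127 and 0.317, and that on chromosome 13 also in percentage points (0.0642).

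A pair of further rises reached full methylation at P10 in several pups. On chromosome 9, 91958505 to 91958506 the levels were 72.2%, 70.4%, 84% and 50% at P2 and 72.5%, 89.5%, 100% and 100% at P10, and the ages overlapped, with C1 at P10 below C8 at P2. On chromosome 7, 132934894 to 132934895 they were 97.1%, 96.8%, 88.9% and 83.9% at P2 and 97.3%, 100%, 100% and 100% at P10. In percentage points neither was called, with adjusted p-values of 0.083 and 0.37. The sixth rise was at the low end, in an intron of AABR07044492.1 (chromosome 20, 8137532 to 8137544), which read 0.877%, 4.23%, 2.38% and 5.66% at P2 and 22.4%, 10.3%, 24.5% and 17.9% at P10. All pups rose without overlap of ages (adjusted p = 0.0133), and in percentage points its adjusted p was 0.081.

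**Figure D3:**
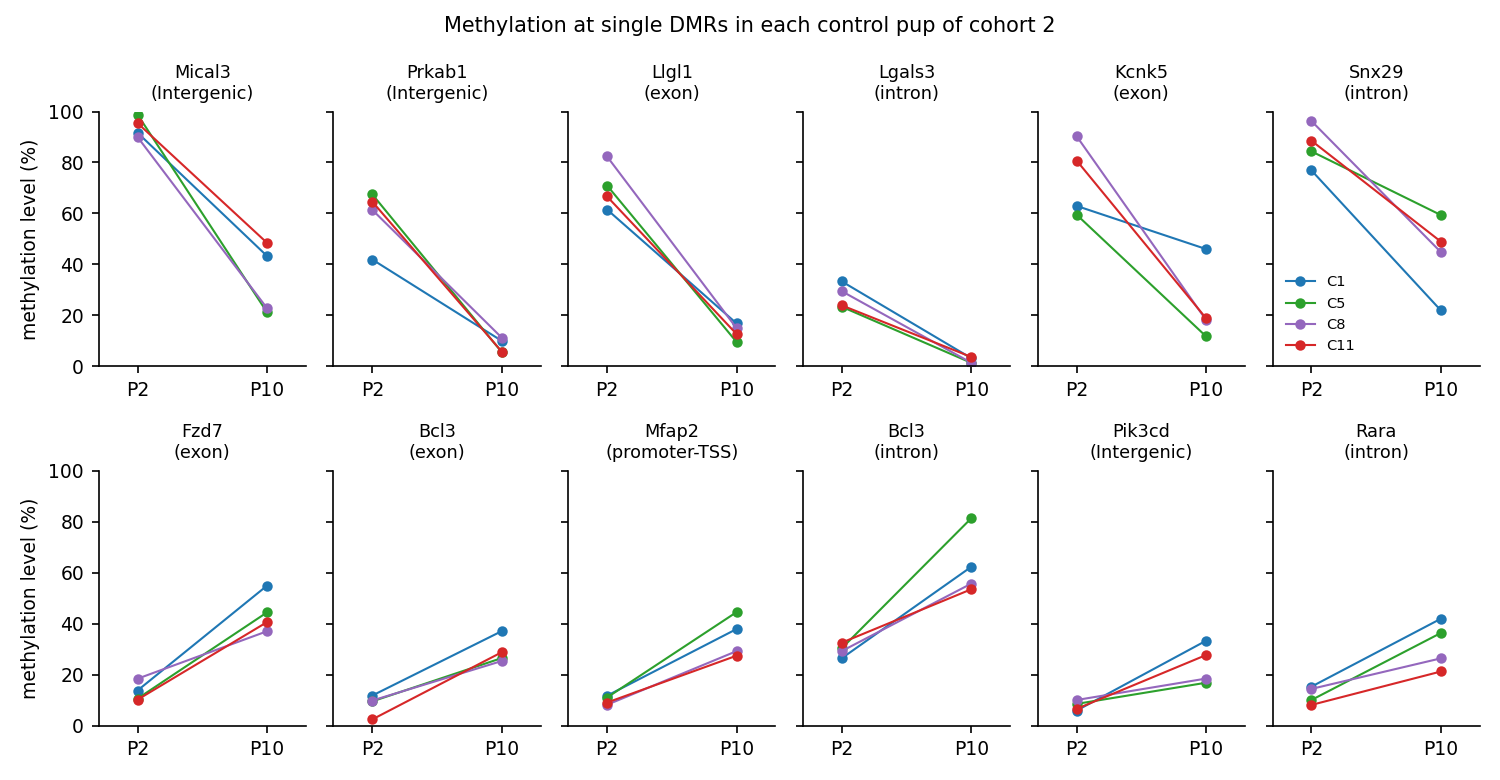
Methylation level (percent, 0 to 100) at P2 and P10 in each of the 4 control pups for 6 DMRs of named genes called lower (top) and 6 called higher (bottom), taken from the largest log-odds changes that the naming rule chose, with the position class under the gene. The lines of all pups run the same way in each panel, and C1 falls least at Kcnk5.

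The level at P2 went with the direction of change. Of 557 DMRs at 75% or more at P2 in these pups, 34.3% were called lower and 0.718% higher. The called falls made 25.8% of the 683 DMRs at 60 to 75%, 20.3% of the 606 at 45 to 60%, 6.95% of the 878 at 25 to 45% and 3.90% of the 693 under 25%. Called rises made 6.06% of this lowest class. The P2 value is itself part of the change, and the classes were therefore also set from the P2 swabs of the 4 LBN pups of cohort 2, a choice made after the data were seen. With these classes the called falls were 11.7% of the 513 DMRs under 25% and between 16.1% and 19.3% of each higher class, without the stepwise rise. The called rises were again most frequent in the lowest class, at 5.65% against 1.59% to 2.22% in the others.

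**Figure D4:**
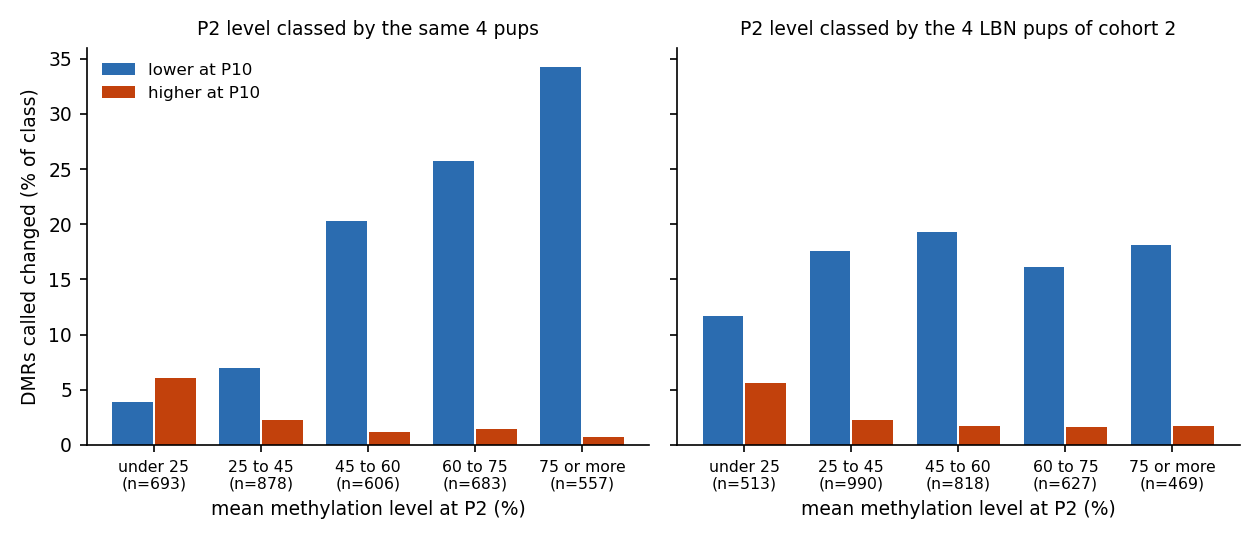
Share of DMRs called lower or higher at P10 in the 4 control pups (percent of each class), by mean level at P2. Classes set by the same pups (left) step up from 3.90% to 34.3% called lower, while classes set by the P2 level of the 4 LBN pups (right) stay between 11.7% and 19.3%.

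Longer DMRs were called lower more often than single positions, 22.4% of 907 against 14.9% of 2510, and their mean level fell by 7.87 points against 5.15 points. Over all 3417 DMRs, 16.9% were called lower and 2.43% higher. Among the classes of the annotation, 48 of 202 intron DMRs were called lower (23.8%) and 7 higher (3.47%). Exon DMRs gave 14 falls (15.1%) and 8 rises (8.6%) of 93, intergenic DMRs with a gene name 31 (27.4%) and 2 (1.77%) of 113, and DMRs at transcription ends 4 (18.2%) and 0 of 22. The 136 annotated DMRs without a gene name gave 39 falls (28.7%), and the 2823 DMRs outside the annotation 437 (15.5%). The study annotated DMRs that it had chosen for separating ages or arms in these and other pups. That choice favours calls inside the annotation, so its shares are no independent contrast with those outside. Between autosomes the share called lower ranged from 11.6% on chromosome 10 to 25.4% on chromosome 12, and of 10 DMRs on chromosome X 1 was called lower. These shares are descriptions, since DMRs of 1 pup are not replicates.

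Genes were grouped into 10 lists, which held 185 DMRs of 162 genes. Of these DMRs 37 were called lower and 9 higher, or 24.9% against 19.3% in the table. Only DMRs with a gene name could enter a list, and 120 of those 458 DMRs were called, a larger share than in the table. A list share above 19.3% is therefore not in itself particular to that list. The gene names come from tables that the study chose on these and the other pups, so the counts are no independent evidence of a direction. Without C1, 4 of the 46 calls in the lists remained called, without C8 22 list DMRs were called and without C11 80.

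For each of the 2 groups of cells in the swab a list of genes was drawn up, and no cell type was assigned from these lists. Of 13 DMRs of epithelial and keratinocyte genes, 6 were called lower and none higher, or 46.2% called against 19.3% in the table, with a median log-odds change of −1.43 against −0.30 over all DMRs. The mean of the 13 ranged from 30.1% to 42.4% over the pups at P2 and from 16.1% to 22.1% at P10. Beside Llgl1, the called DMRs lay near Aqp3, a water and glycerol channel of epithelia, in an intron of Celsr1, a cadherin of planar cell polarity, in an intron of Capn8, a calpain protease, in the promoter of Calml3, a calmodulin-like protein of epithelia, and near Sdc1, the proteoglycan syndecan. Aqp3 (chromosome 5, 57411012 to 57411013) read 17.8%, 15.8%, 28.6% and 32.4% at P2 and 1.5%, 0.833%, 5.13% and 12.8% at P10 in C1, C5, C8 and C11. C11 kept the highest level at P10, still below every P2 value, and the change was −18.6 ± 3.78 points (SD, n = 4, log-odds −2.73 ± 0.48, SE, adjusted p = 0.00645). Celsr1 went from 33% to 11.4% and Capn8 from 81.8% to 51.7%. Calml3 (chromosome 17, 70071395 to 70071396) read 52.4%, 48.9%, 78.4% and 36.8% at P2 and 33.3%, 16.7%, 19% and 25% at P10, with C8 falling far more than the others. It was not called by limma without C8 (adjusted p = 0.21), C1 (0.098) or C5 (0.0517), or after centring (0.056). The 2 largest rises in points among the means of the list were not called, while 10 of the 13 means were lower at P10. The intron DMR of Epcam averaged 5.94% at P2 and 9.62% at P10 (adjusted p = 0.333), and the transcription-end DMR of Krt75 35.7% and 44.1% (0.677), with C1 and C5 higher and C8 and C11 lower at P10.

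Of 19 DMRs of leukocyte genes, 7 were called lower and 2 higher, or 47.4% called against 19.3% in the table, with a median log-odds change of −1.16. Their mean ranged from 40.5% to 48.1% over the pups at P2 and from 29.1% to 39.8% at P10. The part of the cell mixture in these changes was not tested. The means of the epithelial and the leukocyte list were lower at P10 in all 4 pups, as was the mean over all DMRs. In C5 the leukocyte list changed by −4.04 points against −4.22 points over all DMRs, while in the other pups it fell further than all DMRs. After centring 4 epithelial DMRs were called lower and none higher, and 4 leukocyte DMRs lower and 2 higher. Tbxas1 encodes thromboxane synthase, and its intron DMR (chromosome 4, 66697238 to 66697239) read 87%, 87.5%, 89.7% and 95% at P2 and 42.9%, 50%, 72.7% and 45% at P10. C8 stayed highest at P10 but below every P2 value (log-odds −2.92 ± 0.52, SE, adjusted p = 0.00645). Runx1 is a transcription factor of blood cell formation, and its intron DMR (chromosome 11, 32881223 to 32881224) read 56.7%, 91.8%, 67.9% and 88.2% at P2 and 29.3%, 57.1%, 39.4% and 44.4% at P10. The ages overlapped, since C5 at P10 lay at the level of C1 at P2, yet each pup fell (adjusted p = 0.0125). The chemokine receptor gene Cxcr4 went from 58.2% to 24.8%, Cxcr1, a receptor of neutrophils, from 35% to 14.7%, and Cd83, a marker of mature dendritic cells, from 50.3% to 19.3%. P2ry14 and Gpr132, both G protein-coupled receptors, went from 74.3% to 48.3% and from 10.1% to 3.06%.

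The 2 leukocyte rises were at Irf8, a transcription factor of monocytes and dendritic cells, and Pik3cd, a catalytic subunit of the leukocyte PI3 kinase. The exon DMR of Irf8 (chromosome 19, 54332230 to 54332231) read 7.75%, 11%, 7.61% and 8.16% at P2 and 26.9%, 25.8%, 18.8% and 23.3% at P10. The intergenic DMR of Pik3cd (chromosome 5, 166629752 to 166629792) read 5.92%, 8.54%, 10.1% and 6.59% at P2 and 33.3%, 16.8%, 18.5% and 27.7% at P10. Neither overlapped between the ages, with changes of 15 ± 3.28 points (SD, n = 4) and 16.3 ± 9.54 points (SD, n = 4). In percentage points neither was called, with adjusted p-values of 0.072 and 0.077.

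Homeobox genes, which pattern the embryo and its organs, had 24 DMRs in 20 genes, and none was called in either direction against 19.3% of the table. Their median log-odds change was 0.05, and their mean was 20.8% at P2 and 20.6% at P10. The lowest mean changes were at Meis1 (10.4% to 4.23%, adjusted p = 0.128) and Dlx6 (39.2% to 22.5%, 0.109). After centring 2 homeobox DMRs were called higher and none lower. The mean of the list at P2 lay in the class under 25%, where 6.06% of DMRs were called higher and 3.90% lower. The 19.3% of the table is therefore not the share at such levels.

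T-box, GATA and other developmental transcription factors had 38 DMRs, of which 2 were called higher and 2 lower, or 10.5% against 19.3% in the table. Their median log-odds change was 0.50, and 28 of the 38 means were higher at P10. The mean of the list at P2 was 26.4%, in the class of 25 to 45%, where 2.28% of DMRs were called higher and 6.95% lower. Rara encodes a retinoic acid receptor and Rxra its dimer partner, and their intron DMRs went in opposite directions. Rara (chromosome 10, 86880992 to 86880993) read 15.3%, 10.1%, 14.4% and 8.13% at P2 and 42%, 36.4%, 26.4% and 21.2% at P10. Rxra (chromosome 3, 6267952 to 6267953) read 31.7%, 30.9%, 29.5% and 43.8% at P2 and 10.3%, 11.3%, 5.63% and 14.6% at P10. The ages did not overlap at either, with adjusted p-values of 0.028 and 0.0133. Rara was not called without C1 (0.154), C5 (0.065) or C8 (0.0785), and Rxra not without C1 (0.0833) or C8 (0.0744). An exon DMR of Etv4, an ETS factor, went from 77.2% to 33.7% with C5 highest at P10 (adjusted p = 0.0133).

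Among 31 DMRs of Wnt, TGF-beta, BMP, FGF, neurotrophic and guidance signalling, 2 were called higher and 4 lower, or 19.4%, the share of the table. Fzd7, a receptor for Wnt proteins, gave the largest rise of the list in log-odds at an exon DMR (chromosome 9, 66307647 to 66307648), which read 13.8%, 10.6%, 18.4% and 10.2% at P2 and 54.9%, 44.4%, 37% and 40.6% at P10. The ages did not overlap and C1 rose most, and the change was 31 ± 9.39 points (SD, n = 4, log-odds 2.33 ± 0.47, SE, adjusted p = 0.0116). Tgfbr3, a co-receptor for TGF-beta, gave the furthest fall of the list in log-odds at an intron DMR (chromosome 14, 3620744 to 3620745), which read 17.5%, 26.1%, 25% and 18.3% at P2 and 2.55%, 2.16%, 5.68% and 5.19% at P10. The P10 values of the pups lay close together, and the log-odds change was −2.56 ± 0.47 (SE, adjusted p = 0.00774). The guidance ligand gene Slit3 went from 63.5% to 26.3% (adjusted p = 0.0131) and Egfl7, a secreted factor of vessels, from 23.1% to 9.02% (0.0395). The promoter DMR of the semaphorin receptor gene Nrp1 averaged 15% at P2 and 38.8% at P10 and missed the threshold (0.0513), though it was called after centring (0.033).

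Gdnf, a neurotrophic factor, was the single gene of 25 with several DMRs that was called in both directions. Its intergenic DMR (chromosome 2, 56885581 to 56885582) read 59.6%, 53.1%, 56.9% and 56.5% at P2 and 18.3%, 34.6%, 25.5% and 20% at P10. Its exon DMR (chromosome 2, 56892567 to 56892568) read 13.9%, 8.33%, 14% and 19.1% at P2 and 36.4%, 54.5%, 27.8% and 26% at P10. All pups fell at the first and rose at the second, with no overlap of ages at either and adjusted p-values of 0.0175 and 0.0439, and a DMR in an intron averaged 32.7% and 45.1% without a call. In 9 of the 25 genes the DMRs differed in the sign of their mean log-odds change. Only Bcl3 and Mn1 had 2 DMRs called in the same direction, higher in both genes. Mn1, a transcriptional co-regulator named here after its values were seen, went from 10.8% to 27.5% and from 41.1% to 68.7% at 2 exon DMRs (adjusted p = 0.0343 and 0.0373).

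Genes of NF-kB and TNF signalling had 5 DMRs called lower and 2 higher of 14, or 50% against 19.3% in the table. Both rises were in Bcl3, an atypical IkB protein that binds NF-kB subunits in the nucleus. Its exon DMR (chromosome 1, 80733682 to 80733689) read 11.8%, 9.52%, 9.86% and 2.46% at P2 and 37.1%, 26.5%, 25.4% and 28.8% at P10. Its intron DMR (chromosome 1, 80731734 to 80731753) read 26.5%, 30.4%, 29.3% and 32.6% at P2 and 62.3%, 81.4%, 55.7% and 53.5% at P10. At both, every P10 value lay above every P2 value, and the adjusted p-values were 0.0148 and 0.0181. The falls were at other members of these pathways, namely the TNF receptor gene Tnfrsf1b (27.2% to 10.1%), the adaptor gene Traf3 (17.5% to 6.01%), the kinase genes Map3k5 (80.7% to 53.4%) and Map3k8 (38.9% to 16.2%), and the scaffold gene Card10. The exon DMR of Card10 (chromosome 7, 120011332 to 120011333) read 53.3%, 39.5%, 63.6% and 58.6% at P2 and 10.8%, 13.6%, 14.3% and 8.79% at P10. The 4 pups ended close together and far below P2, and the log-odds change was −3.03 ± 0.48 (SE, adjusted p = 0.00546). After centring the list had 2 rises and 1 fall, and Map3k5 was no longer called (0.057).

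Of the enzymes that write or remove DNA methylation, 2 had a DMR, and neither was called. The intron DMR of the methyltransferase gene Dnmt3a (chromosome 6, 28324002 to 28324027) read 12.6%, 9.15%, 10.1% and 10.1% at P2 and 15.3%, 22%, 24.5% and 19.3% at P10. All 4 pups were higher at P10 without overlap, with an adjusted p of 0.12. The intergenic DMR of the demethylating Tet3 (chromosome 4, 115158745 to 115158750) read 12.9%, 19%, 24.5% and 4.64% at P2 and 2.21%, 1.51%, 9.57% and 12.6% at P10. C11 was higher at P10 and the others lower (adjusted p = 0.141).

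Genes of glycan synthesis and modification had 4 of 10 DMRs called lower and none higher, or 40% called against 19.3% in the table, with the lowest median of the lists at −1.66. Xylt2, which starts the sugar chains of proteoglycans, went from 26.7% to 6.79% (adjusted p = 0.0168), and Sulf2, a sulfatase that trims heparan sulfate, from 37.3% to 12.9% (0.0257). B4galt4, a galactosyltransferase, went from 48.4% to 23.7%. H6pd, which the list also counted, is a sugar dehydrogenase of the endoplasmic reticulum and not an enzyme that builds glycans. It went from 16.6% to 4.79%. C11 differed from the other pups over this list, with a mean change of 2.35 points against −10.1 to −17.9 points. The means of B3gnt2 (28% to 28.5%) and Hs2st1 (69.2% to 76.3%) were not called. After centring 1 of the 4 falls was still called lower, and Sulf2 was not (0.052).

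Ion channels, pumps, solute carriers and water channels had 6 of 20 DMRs called lower and none higher, or 30% called against 19.3% in the table, with a median of −1.27. After centring 5 were called lower and none higher. The exon DMR of Kcnk5, a background potassium channel (chromosome 15, 4595203 to 4595204), read 63%, 59.5%, 90.3% and 80.8% at P2 and 46%, 11.8%, 18.2% and 18.9% at P10. C1 fell by 16.9 points and the other 3 pups far more, and the log-odds change was −3.40 ± 0.63 (SE, adjusted p = 0.00774). The DMR of Slc43a3, a solute carrier, went from 69.1% to 35.3% and the intergenic DMR of the calcium-activated potassium channel gene Kcnn4 from 35.9% to 12.3%. An intron DMR of the same Kcnn4 had a mean of 9.1% at P2 and 17.1% at P10 (adjusted p = 0.173). Atp8b4, a lipid flippase, averaged 54.4% at P2 and 70.1% at P10 with C11 lower and the other pups higher at P10 (0.205).

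Extracellular matrix and adhesion genes had 4 of 19 DMRs called lower and 1 higher, or 26.3% called against 19.3% in the table. Lgals3 encodes galectin-3, a sugar-binding lectin of epithelial cells and macrophages, and its intron DMR (chromosome 15, 24154167 to 24154168) read 33.3%, 23.4%, 29.5% and 23.9% at P2 and 3.21%, 1.4%, 1.41% and 3.68% at P10. It was close to unmethylated in all 4 pups at P10, and the log-odds change was −3.54 ± 0.46 (SE, adjusted p = 0.00325). Col25a1, a membrane-bound collagen, went from 60.2% to 24.1% (0.0126), Pxn, the focal adhesion protein paxillin, from 38.1% to 13.6%, and Itga10, a collagen-binding integrin, from 65.1% to 31.9%. The rise was in the promoter of Mfap2, a protein of elastic microfibrils (chromosome 5, 159534225 to 159534289), whose CG-rich window is printed above. It read 11.8%, 11%, 8.2% and 9.07% at P2 and 37.9%, 44.5%, 29.2% and 27.4% at P10. Every P10 value was above every P2 value, with C5 highest, and the change was 24.8 ± 6.65 points (SD, n = 4, log-odds 2.15 ± 0.45, SE, adjusted p = 0.0126). An exon DMR of Efemp2, an elastic fibre protein, averaged 18.3% at P2 and 35.2% at P10, but C11 was lower at P10 and it was not called (0.124).

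The other promoter falls were at genes with unlike roles. Slc44a3, a choline transporter-like protein, read 29%, 22%, 15.6% and 37% at P2 and 11.9%, 12.5%, 5.56% and 8.6% at P10 at the promoter DMR (chromosome 2, 225107271 to 225107272). Gpr39, a zinc-sensing receptor, went from 47.7% to 21.7%, and Ehbp1l1 from 15.9% to 4.32%. Tspo, a protein of the outer mitochondrial membrane, went from 14.3% to 2.33%. After centring Slc44a3 (adjusted p = 0.082), Gpr39 (0.061) and Ehbp1l1 (0.057) were not called. In percentage points Tspo (0.166), Ehbp1l1 (0.166) and Slc44a3 (0.074) were not called. Without C1 none of these promoter falls was called, with adjusted p-values of 0.149 for Slc44a3, 0.121 for Gpr39, 0.201 for Ehbp1l1 and 0.098 for Tspo.

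**Figure D5:**
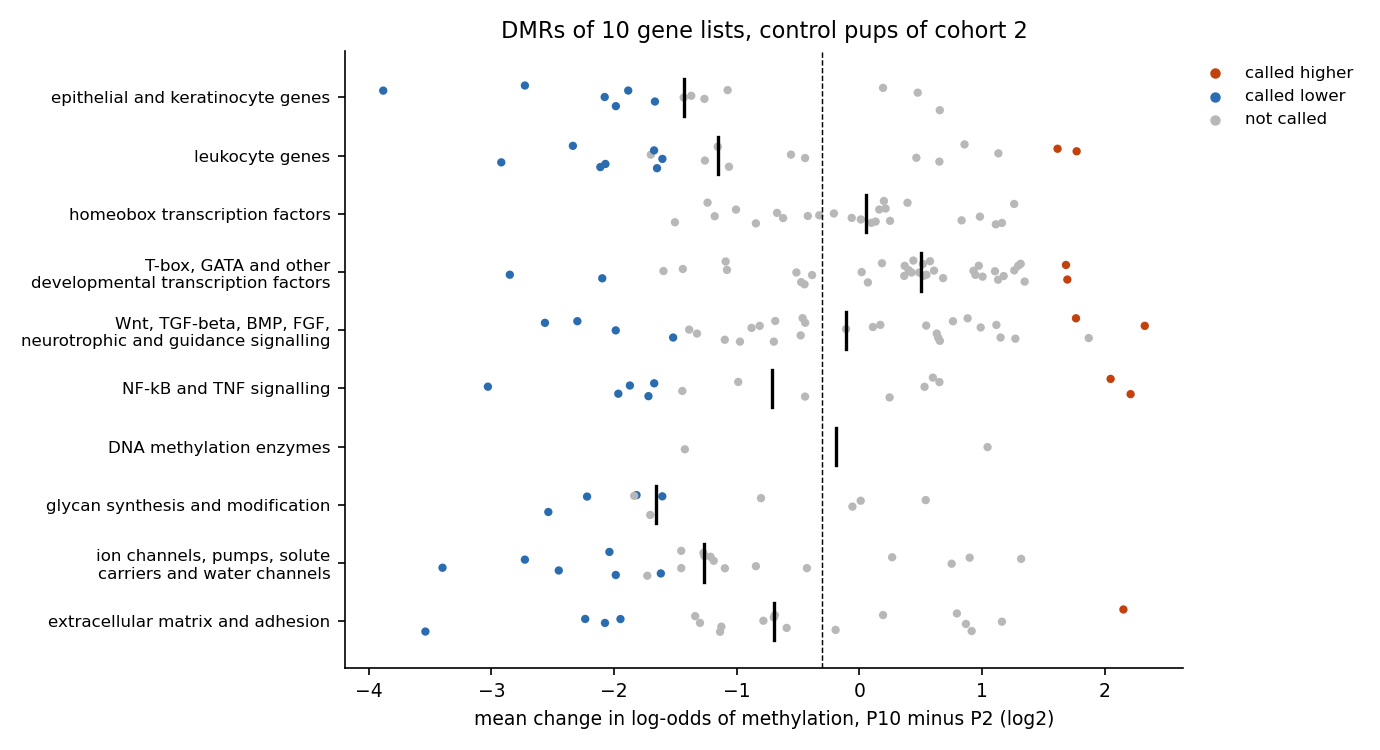
Mean change in log-odds (log2, P10 minus P2) of the DMRs of each gene list in the 4 control pups, coloured by call, with the median of the list as a bar and the median of all DMRs (−0.30) as a dashed line. The glycan, epithelial, channel and leukocyte lists have medians between −1.66 and −1.16, while the homeobox list, without a call, has a median of 0.05. After centring, 2 homeobox DMRs were called higher.

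Part of these calls was lost when a pup was left out, which also leaves the test only 3 pups. All 661 calls kept their direction with any single pup left out. Without C1 the log-odds change was 2.17 at Mfap2 and 2.16 at Fzd7, against 2.15 and 2.33 with all pups, though both calls were lost. Why calls were lost was not tested. Of the 43 called DMRs chosen by the naming rule or their promoter class, 14 stayed called without C1, 32 without C8, 40 without C5 and 42 without C11. All 6 of the furthest falls in log-odds, and Lgals3, Kcnk5 and Card10, were called under every alternative and without any single pup. Fzd7, Mfap2, Bcl3, Tgfbr3 and Aqp3 were not called without C1, with adjusted p-values of 0.087, 0.081, 0.087 (exon) and 0.11 (intron), 0.06 and 0.06.

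The control pups of cohort 1 had a mean change over the same DMRs nearer to 0, of −1.58 ± 2.46 points (SD, n = 6), from −4.39 to 1.29, against −5.88 ± 2.23 points in cohort 2. The difference of −4.30 points gave a two-sided exact permutation p of 0.0286, adjusted to 0.0571 over 2 comparisons, where the smallest possible p is 0.00952. All 4 pups of cohort 2 and 4 of the 6 pups of cohort 1 had a mean below 0. Cohort 1 began at 51.7% ± 1.57 (SD, n = 6) at P2 and ended at 50.1% ± 0.985. The cohorts differ in date and pups together, and these cannot be told apart.

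DMR by DMR, limma called a different change in 0 of 3417 DMRs (0%) between the controls of the 2 cohorts, while 311 had an unadjusted p under 0.05. The DMRs called in cohort 2 had the same sign on average in cohort 1, at 549 of 578 falls (95.0%, against 53.5% lower over all DMRs) and 80 of 83 rises (96.4%, against 46.5%). The selection of DMRs counted control pups of both cohorts together, so these shares are no independent support. In cohort 1, whose values did not decide these calls, the median change was −12.6 points at the falls and 11.3 points at the rises. Over all DMRs the median in cohort 1 was −0.80 points. In cohort 2, whose values decided the calls, the medians at these falls and rises were −28.6 and 22.3 points. The test within cohort 1 called 24 DMRs. At Lgals3 the change in cohort 1 was −19.8 ± 6.68 points (SD, n = 6), and at the Bcl3 intron 27.6 ± 3.72 points. Other called DMRs had mean changes near 0 in cohort 1, at −2.1 ± 17 points for Slit3, −1.41 ± 16.2 points for Pik3cd and −0.00652 ± 11.7 points for the intergenic DMR of Gdnf. The smallest p of the difference was on chromosome 2, 187739437 to 187739438, where cohort 2 went from 58.4% to 10.7% while cohort 1 averaged 51.3% and then 51.5% (adjusted p = 0.23).

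The mean change of the 4 LBN pups of cohort 2 lay close to that of the controls, at −6.79 ± 2.34 points (SD, n = 4), from −9.77 to −4.61. The difference from the controls was 0.914 points, with a two-sided exact permutation p of 0.6, adjusted 0.6, and a smallest possible p of 0.0286. By their own test the LBN pups had 568 called DMRs, 524 lower and 44 higher. Of the falls called in the controls 80.6% were lower on average in the LBN pups, where 70.4% of all DMRs were. The median change of the LBN pups at those falls was −6.97 points, against −5.45 points over all DMRs. Of the rises 80.7% were higher in the LBN pups, where 29.6% of all DMRs were.

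The test of the difference called 2 DMRs (0.0585%), with 809 at an unadjusted p under 0.05. On chromosome 15, 40479196 to 40479197 the controls read 81.2%, 93.8%, 72.7% and 85.7% at P2 and 31.2%, 66.7%, 35.3% and 30% at P10, and the LBN pups went from 45.2% ± 7.83 to 66.1% ± 17.2 (SD, n = 4). The controls were lower and the LBN pups higher at P10, with a difference of −4.30 ± 0.56 in log-odds (SE, adjusted p = 0.0186, limma). On chromosome 14, 9158709 to 9158710 the controls read 78.9%, 86.4%, 83.3% and 85% at P2 and 34.8%, 51.2%, 57.4% and 69.6% at P10, and the LBN pups went from 48.7% ± 6.83 to 70.2% ± 7.21, a difference of −3.39 ± 0.52 (SE, adjusted p = 0.047). At both DMRs the arms already stood apart at P2, before allocation, when the controls averaged 83.4%. The third in order, an intron DMR of the sorting nexin gene Snx29, was not called for a difference (adjusted p = 0.0578), with the controls at 86.5% to 43.8% and the LBN pups at 51.3% to 57.8%. The count rested on scale and pups, since 78 DMRs were called in percentage points and 11 as log2(P10/P2), but 0 without C1, 23 without C5 and 1 without C8. A gap between the arms at P2 was also present at other falls called in the controls, and was not tested. At P2 the controls and LBN pups averaged 53.8% and 25.2% at Card10, 63.5% and 39.9% at Slit3, and 60.2% and 35.2% at Col25a1. The LBN pups then changed by −7.80, −12.4 and −7.69 points, less than the controls. Not every called fall had such a gap, as Llgl1 began at 70.4% and 72.8%.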

How the data were processed

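RRBS libraries of buccal swabs from 19 Sprague Dawley pups at P2 and P10 were made and processed by the authors. Per the study's methods and the submitters' notes, reads were trimmed with Trim Galore 0.4.3 and aligned to rn6 with Bismark 0.16.3, CpGs with more than 10 reads were kept, and CpGs differing between the ages (false discovery rate of 0.05) in at least 2 pups of an arm were merged within 100 base pairs. The deposited values were percent methylation of 3417 DMRs, computed by the authors without correction for cohort. Of these percentages 22 were 0 and 44 were 100 in the 8 samples. The depth per sample is unknown, so no coverage minimum was varied.

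Tests used limma 3.58.1 in R 4.3.3 (lmFit, eBayes) on log-odds with a pseudocount of 1, and were checked on simulated data. Planted changes of 1 in log-odds were found in 0% of cases. At 2 the test found 20.5% for the change itself. For the difference it found 45% against cohort 1 controls and 12% against LBN pups. The simulation gave every group the spread of the cohort 2 controls. Few calls therefore do not show that differences are absent. Samples were paired by the pup named in the title, as the same animal was swabbed at both ages, and the pup was a block. Deviations from the age means of the same pup correlated at −0.573 (C11), −0.224 (C5), 0.0284 (C1) and 0.231 (C8) over DMRs, and those of different pups at −0.543 to 0.587, so the pairing rests on the animals' names and not on these values. Exact permutation tests (two-sided) were applied to means over DMRs. Gene names and position classes came from the study's annotation of 594 DMRs, and 379 of its 426 names matched RefSeq symbols. Named DMRs were the 6 largest rises and 6 largest falls among calls moving the same way in all 4 pups, the 2 highest and 2 lowest of each gene list, every DMR of a DNA methylation enzyme and the 3 smallest p-values of each test of a difference; some of these are not reported here. The DMRs, gene lists and tests were chosen with earlier results of these data known. Alternatives changed the scale, pseudocount, filter, block, samples fitted, variance model, centring and pups. Python 3.11.15 with scipy 1.17.1 and matplotlib 3.10.9 was used.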

Additional observations from a re-analysis of the deposited data

Results flagged for a closer look

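A sample far from the rest of its group was looked for in 165 sets of 4 values (the P2 level, the P10 level and the change of each DMR named by the rule or promoter class, and the pup means) with Dixon's test, which chance passes in about 1 in 20 sets, and 11 values passed. C11 was lowest at P10 on chromosome 17, 9661618 to 9661619, with 82.6% against 95.7% to 96.6% in the other 3 pups. On chromosome 5, 144856136 to 144856137, C11 was again lowest at P10, with 63.4% against 85.4% to 87.8%, and its change of 18.7 points stood below 40.3 to 40.9 points. C1 was lowest at P10 on chromosome 7, 132934894 to 132934895, with 97.3% against 100% in the others. C5 was highest at P10 on chromosome 15, 40479196 to 40479197, with 66.7% against 30.0% to 35.3%. At P2, C5 was highest at the Irf8 exon with 11% against 7.61% to 8.16%, and C11 was highest at the Rxra intron with 43.8% against 29.5% to 31.7%. At the Epcam intron C1 was highest at P2 with 9.03% against 4.61% to 5.26%, and the change in C11 of 9.14 points stood above 1.26 to 2.33 points. At the B3gnt2 promoter C1 was highest at P2 with 36.2% against 24.8% to 26.4%, and C11 at P10 with 41.3% against 23.2% to 26.1%.

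The change from P2 to P10 differed between the control and LBN pups of cohort 2 at 2 DMRs by limma, with a log-odds difference of −4.30 on chromosome 15, 40479196 to 40479197 (adjusted p = 0.0186), and of −3.39 on chromosome 14, 9158709 to 9158710 (adjusted p = 0.047).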

How the results depend on the processing

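The 661 calls became 1076 with no replicate block, 1016 with all 38 samples in 1 fit and 1008 with a trended and robust variance. Leaving out 1 pup gave between 60 (without C1) and 982 (without C11) calls. The other alternatives gave between 446 and 786. The mean change over DMRs stayed between −7.87 and −4.64 points over its alternatives, and with a pup left out between −6.44 and −4.87 points. The test against cohort 1 controls called 0 DMRs under each alternative, with 191 to 366 at an unadjusted p under 0.05. The 2 calls against the LBN pups became 78 in percentage points, 11 as log2(P10/P2), 1 after centring, and 0 to 23 with a pup left out. The 46 calls in gene lists became 4 to 80 with a pup left out. Of the 43 called DMRs chosen by the naming rule or promoter class, 18 lost the call under at least 1 alternative that kept all pups. Among DMRs not called, the log-odds change turned with a pup left out, ranging from −0.48 (without C5) to 1.32 at Krt75, from −0.0615 (without C11) to 1.18 at Hs2st1 and from −0.34 (without C11) to 0.31 at B3gnt2, where log2(P10/P2) was −0.00386. The cause of these shifts was not tested. Unknown read depth limits the precision of each percentage.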
